A study of Homo sapiens with 10 samples.

Results

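The HER2 binding sites that lay in H3K4me1-marked chromatin were examined in SKBR3 cells treated with EGF. A HER2 peak was included when it overlapped, by at least 1 bp, an H3K4me1 island in both SKBR3 replicates. Of the 2520 peaks called after EGF in SKBR3, 329 met this rule (13.1%, 95% Wilson interval 11.8 to 14.4). A further 110 peaks overlapped an island of only 1 replicate, and 2081 lay outside the islands of either replicate and served for comparison. The 4 HER2 lists of the series hold 43001 peaks together.

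HER2 was mapped by ChIP-exo, in which an exonuclease trims immunoprecipitated DNA up to the bound protein, in SKBR3 and BT474 cells. Both lines derive from breast cancers in which ERBB2 is amplified, and both were grown asynchronously in serum, without serum deprivation. They received vehicle (H2O) or EGF at 100 ng/ml for 3 hours, with 1 HER2 list per condition. For H3K4me1, ChIP-seq was done with 2 replicates in each line. Whether the replicates came from separate cultures is not stated in the sources used here. The labels give the H3K4me1 cells as asynchronous, whereas the text of the study describes them as treated with EGF, so the overlap was read as a comparison of places in the genome and not of matched treatments. The lots of the HER2 antibody differed between the cell lines.

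HER2 is a receptor tyrosine kinase of the ERBB family that signals from the plasma membrane as a partner of EGFR and HER3, through the MAPK and PI3K cascades. Full-length receptors of this family have also been recovered from chromatin. H3K4me1 is the monomethylation of lysine 4 of histone H3, a mark found at active and primed enhancers and along the flanks of active promoters, and its distribution differs between cell types.

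The H3K4me1 lists hold between 15097245 and 18714089 reads inside islands, whereas the read depth behind the HER2 lists is unknown. SKBR3 islands lay within 1 kb of the 5′ end of ERBB2, KRT18, KRT19, EPCAM and TFAP2C in both replicates, which makes 5 of the 7 genes chosen to mark a luminal, HER2-amplified line. KRT8 had no SKBR3 island there, and neither did GRHL2. An island stood at ESR1, the estrogen receptor gene, in all 4 H3K4me1 libraries. PGR, the progesterone receptor gene, had one in SKBR3 replicate 2 and in both BT474 replicates but not in SKBR3 replicate 1. The level of transcription at these genes was not measured by these files.

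The sequences under 3 of these sites are shown because they hold the part-palindromic core CGTNTGC, sought on both strands up to 50 bp from the midpoint of the peak, and because they had the highest HER2 scores among the sites that hold it. The fourth is the highest-scoring peak outside islands with the core, and the fifth is the whole peak in MAP3K13, a site in an island without the core. All are given 5′ to 3′ on the plus strand of GRCh37, and the capitals mark the core or its reverse complement.
TH site, in islands, chr11:2217802-2217901: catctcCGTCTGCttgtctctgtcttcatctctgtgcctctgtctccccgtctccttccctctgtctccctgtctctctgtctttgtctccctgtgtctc
SMCO4 site, in islands, chr11:93232094-93232193: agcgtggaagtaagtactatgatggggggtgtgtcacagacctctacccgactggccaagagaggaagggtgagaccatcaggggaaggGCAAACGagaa
RDH12 site, in islands, chr14:68196232-68196331: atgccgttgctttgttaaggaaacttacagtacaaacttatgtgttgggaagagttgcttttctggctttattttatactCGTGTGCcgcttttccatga
REEP3 site, outside islands, chr10:66315589-66315688: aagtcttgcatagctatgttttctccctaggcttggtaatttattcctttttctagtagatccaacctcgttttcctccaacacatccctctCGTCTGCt
MAP3K13 site, in islands, chr3:185082111-185082405: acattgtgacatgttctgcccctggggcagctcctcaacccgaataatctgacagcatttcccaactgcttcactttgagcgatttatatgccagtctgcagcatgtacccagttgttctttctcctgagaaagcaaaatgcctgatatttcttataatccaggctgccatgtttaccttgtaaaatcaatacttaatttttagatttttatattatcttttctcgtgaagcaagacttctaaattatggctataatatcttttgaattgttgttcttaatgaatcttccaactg
The TH site was intergenic, 24807 bp from the nearest start site of TH, the gene of tyrosine hydroxylase, and scored 631.5. It met its islands with as little as 50 bp of the peak, and its midpoint stood beyond the edge of the island in both replicates. The islands began at 2218001 in replicate 1 and at 2218201 in replicate 2. The printed window and its core thus lay outside both islands, and the label refers to the whole peak. The SMCO4 site lay in an intron 373 bp from a start site and scored 455, and the RDH12 site lay in an exon and scored 364. The REEP3 site is named for the nearest protein-coding gene, whose start is 957833 bp away, and scored 538.

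The share of HER2 sites in islands was set beside the same peaks moved by fixed steps of 20 to 200 kb to either side, which gave 20 placements. Of the 50379 moved positions, 12.6% lay in an island of both replicates, beside 13.1% of the sites themselves. The share over single placements ran from 11.3 to 13.6%, so the share at the true positions stood within this range, with 3 placements at or above it and 17 below. The ratio of the true to the moved share was 1.04, between 0.959 and 1.15 over the placements. With moves of only 1 to 10 kb, tried after the other results were seen, the 8 placements gave 11.5 to 12.8%, all below the share at the true positions. These peaks have a median width of 216 bp, and 287 of the 329 lay wholly inside an island of both replicates.

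**Figure D1:**
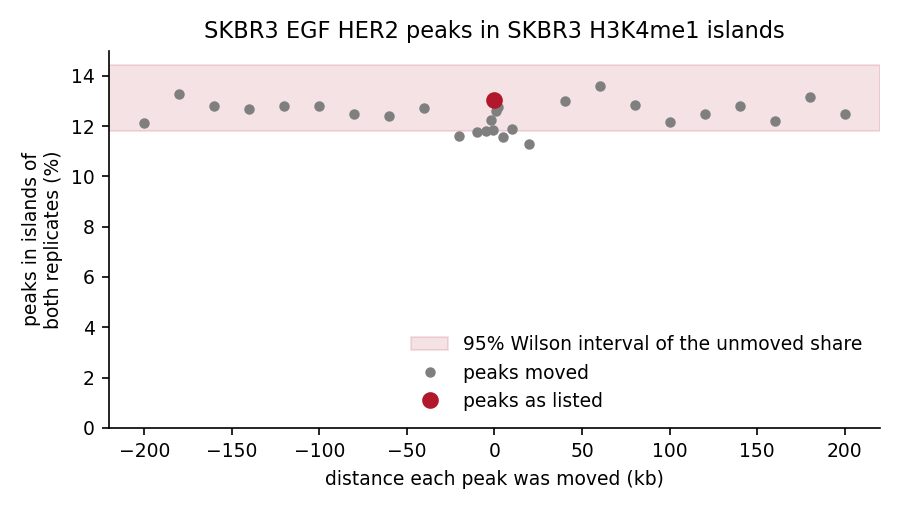
Share of SKBR3 EGF peaks, in percent, in an H3K4me1 island of both SKBR3 replicates (vertical axis) at the true position at each of the 20 placements moved by 20 to 200 kb and at the 8 placements moved by 1 to 10 kb (horizontal axis, distance moved in kb). The band is the 95% Wilson interval of the true share. The true share of 13.1% lies within the range of the 20 placements, 11.3 to 13.6%, and above the 8 near ones.

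Some peaks stood close to the edge of the rule. Just inside, the smaller overlap of the 2 replicates was 9 bp for a peak near SLX4IP at chr20:10582810-10583009. It was 23 bp for a peak near CPA5 at chr7:129979977-129980200 and 33 bp for a peak near DCPS at chr11:126180015-126180233. In replicate 1 the SLX4IP and DCPS peaks lay wholly inside their islands. Just outside, peaks near TBL1XR1, FAM209A and C1orf198 stopped 24, 29 and 54 bp short of an island.

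The other HER2 lists also had peaks in the SKBR3 islands. Of the 2596 SKBR3 vehicle peaks, 321 lay in islands of both replicates (12.4%, 11.2 to 13.7), an interval that overlaps the one after EGF. The shares of the BT474 lists in SKBR3 islands were 10.4% after EGF and 11.3% with vehicle. Of the 329 sites, 41 were also called in SKBR3 vehicle (12.5%), and among peaks outside islands the number was 264 (12.7%), a difference of -0.224 percentage points with a 95% Newcombe interval of -3.70 to 4.01. BT474 cells after EGF had a peak at 281 of the sites (85.4%) and at 1759 of the peaks outside islands (84.5%), a difference of 0.884 points (-3.59 to 4.65). Sites in islands and peaks elsewhere did not differ in sharing beyond these intervals.

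The HER2 score, whose scale the sources do not state and which was read only within the SKBR3 EGF list, had nearly the same distribution in and out of islands. In islands the score ran from 4 to 1616, with a median of 127 and quartiles of 71.5 and 202. Outside islands the median was 128.5 and the quartiles were 72.5 and 205.5, and the highest score was 58931. Scores above the list median were held by 49.8% of the sites in islands and 49.6% of those outside, a difference of 0.208 points (-5.57 to 5.99). From the lowest to the highest score quartile of the list, the share in islands was 13.7, 12.4, 13.5 and 12.5%. At the moved positions of the same quartiles the mean share was 12.3, 11.7, 12.7 and 13.7%, and each true share lay within the range of its placements. Peak width had a median of 216 bp in islands and 217 bp outside. The median GC content within 50 bp of the midpoint was 45% in islands and 43% outside, and in windows 1 kb away it was 45.5% and 41.5%.

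**Figure D2:**
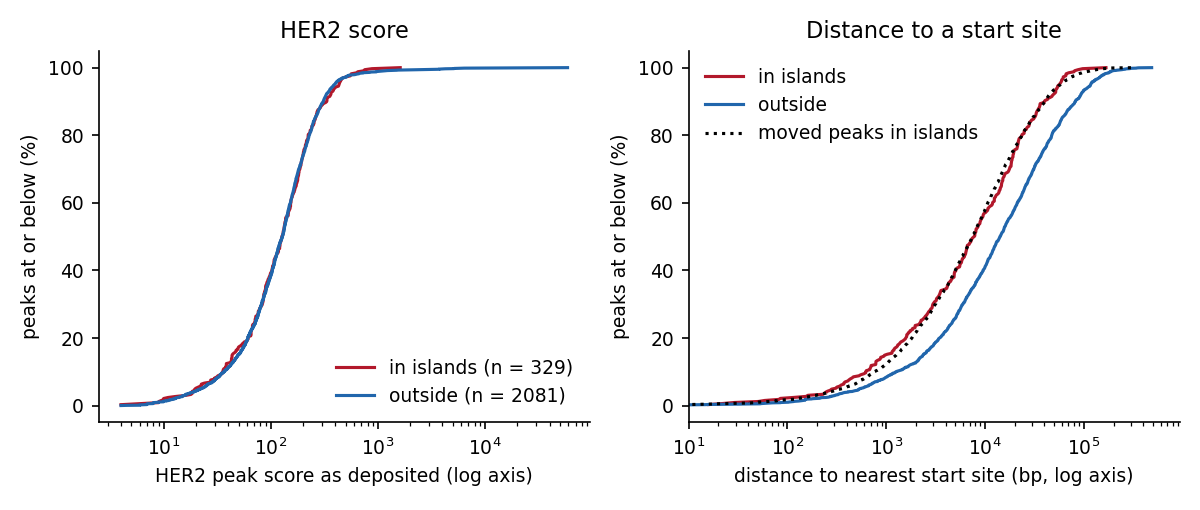
Cumulative share of SKBR3 EGF peaks, in percent, by HER2 score (left) and by distance in bp to the nearest transcription start site (right), on log axes, for the 329 sites in islands, the 2081 peaks outside and, for distance, moved peaks in islands. The score curves lie on each other (medians 127 and 128.5), while the distance curve of sites in islands lies to the left of that outside (medians 7871 and 14279 bp) and beside that of moved peaks in islands.

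HER2 sites in islands lay nearer to transcription start sites than HER2 peaks outside. The median distance from a midpoint to the nearest transcription start site of any gene was 7871 bp in islands and 14279 bp outside. For starts of protein-coding genes the medians were 18378 and 47203 bp. A start site stood within 10 kb of 187 sites in islands (56.8%, 51.4 to 62.1) and of 851 peaks outside (40.9%, 38.8 to 43.0), and the difference of 15.9 points had an interval of 10.1 to 21.6, which leaves out 0. Moved positions that fell in islands had a start site within 10 kb in 57.9% of cases (53.3 to 65.7 over placements), so the value at HER2 sites stood within the range of other island positions nearby.

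The same held for the part of the gene that was covered. Introns held 195 sites in islands (59.3%), a difference of 6.84 points from outside (1.05 to 12.4), beside 60.7% at moved island positions. Intergenic sequence held 95 (28.9%), a difference of -9.81 points (-14.9 to -4.29), beside 26.3% at moved island positions. The 1 kb upstream of a start site held 20 (6.08%) and exons 19 (5.78%), and for the upstream kilobase the difference of 1.42 points from outside had an interval that includes 0 (-0.914 to 4.65). Split by distance, 49 of the 234 peaks within 1 kb of a start were in islands (20.9%), 138 of 863 at 1 to 10 kb (16%), 116 of 1001 at 10 to 50 kb (11.6%) and 26 of 422 beyond 50 kb (6.16%). Positions moved from the peaks and lying at these distances were in islands in 19.1, 16.2, 11.2 and 5.03% of cases, and no true share left the range of its placements.

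The islands that held HER2 sites were wide, as island positions nearby were. In replicate 1 the 329 sites fell in 328 distinct islands with a median width of 5599 bp (quartiles 3199 and 10199), and in replicate 2 in 325 islands with a median of 5999 bp (3399 and 10999). The median over all islands was 2999 bp in replicate 1 and 3199 bp in replicate 2. A wider island is met more often by any position, and islands at moved peaks had medians of 6184 bp (5399 to 7199 over placements) and 6549 bp (5799 to 7599). The median island at a HER2 site held 266 reads in replicate 1 and 259 in replicate 2. Per kb of island the median was 46.5 and 45.8 reads, beside 47.8 (45.4 to 50.5) and 46.6 (44.7 to 48.9) at moved positions. Averaged over replicates, the ratio of the median width at HER2 sites to that at moved sites was 0.911 (0.784 to 1.02) and that of reads per kb was 0.977 (0.935 to 1.02). Gene copy number was not taken into account, and reads per kb of island can follow it.

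**Figure D3:**
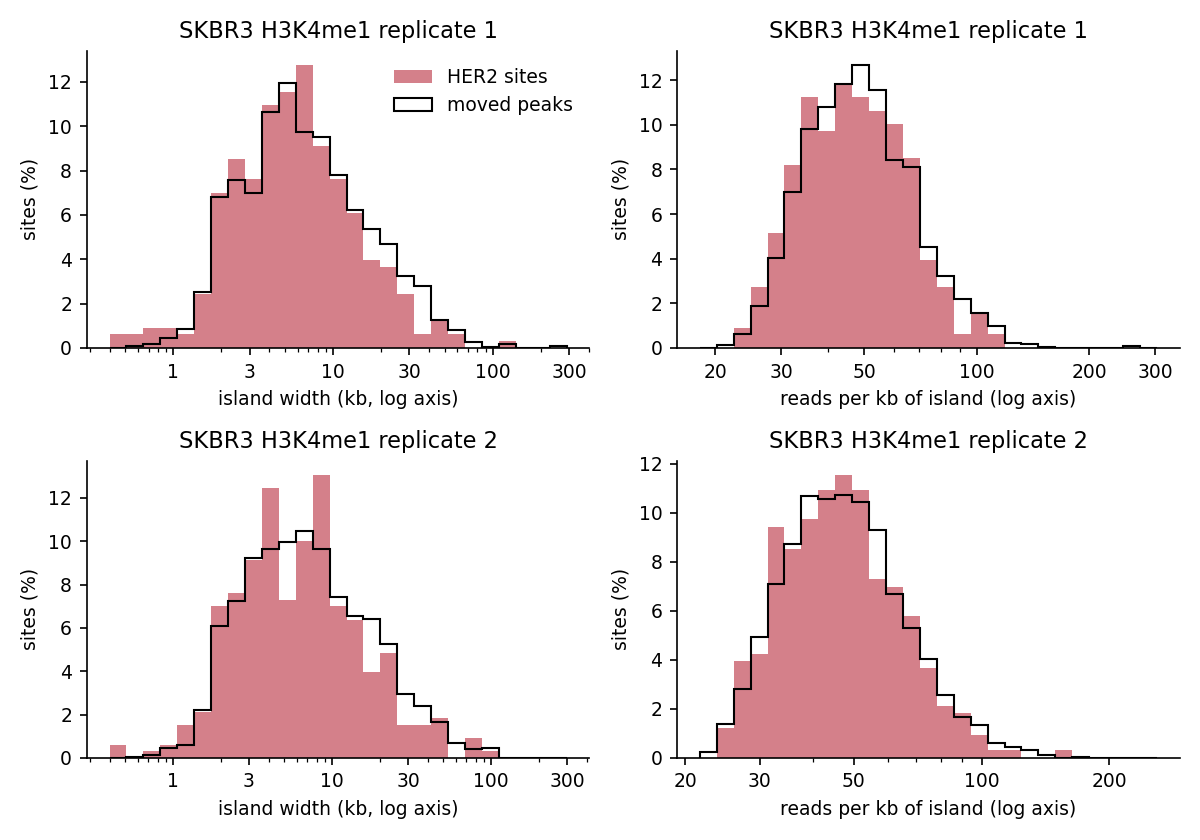
Share of sites, in percent, by width in kb (left) and reads per kb (right) of the SKBR3 H3K4me1 island that holds them, on log axes, for HER2 sites (filled) and moved peaks of the 20 placements together (line), with replicate 1 above and replicate 2 below. The bulk of the distributions coincides, with median widths of 5599 and 5999 bp and medians of 46.5 and 45.8 reads per kb at HER2 sites, and a few HER2 sites stand alone in the narrowest islands.

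A small set of sites lay in very narrow islands, a class chosen after the widths were seen. In replicate 1, 10 sites lay in an island under 1 kb (3.04%, 1.66 to 5.50), against 0 to 1.86% at the placements, and in replicate 2 it was 5 sites (1.52%), against 0 to 1.17%. Counting either replicate, 12 of 329 sites lay in such an island (3.65%, 2.10 to 6.27), and the 20 placements gave 0 to 2.48%. In both replicates together, 3 sites qualified (0.912%), and the placements gave 0 to 0.635%. The count at the true positions was thus above every placement in each version. The largest count at a placement was 6 sites for replicate 1, 4 for replicate 2, 8 for either and 2 for both. These versions count overlapping sets of the same sites, so they do not repeat the observation independently. The 12 sites had a median score of 72, which is below the median of 127 for all 329. Of the 12, 9 had an island of both BT474 replicates and 11 had a BT474 EGF peak, 2 were called in SKBR3 vehicle and 3 held the core. Over all 329 sites these counts were 174, 281, 41 and 41 (52.9, 85.4, 12.5 and 12.5%).

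Of the 3 sites with narrow islands in both replicates, the highest score belonged to a site in an intron of NR4A1, which encodes an orphan nuclear receptor of the immediate early response. This site, at chr12:52419960-52420278, scored 444 and lay in islands of 999 bp in both replicates, with 56 and 67 reads. The other two were intergenic. At chr13:25615727-25615931 the islands were 599 and 399 bp wide with 58 and 64 reads, and the score was 9. At chr1:238880386-238880585 both islands were 399 bp wide, with 30 and 28 reads, and the score was 31.5. Each of these sites also had an island in both BT474 replicates, between 399 and 799 bp wide at the intergenic sites and 2399 and 1199 bp wide at NR4A1. The other 9 sites included a peak at chr11:69390111-69390310, the nearest SKBR3 EGF peak to CCND1, the gene of cyclin D1, in islands of 799 and 1199 bp, and a peak upstream of NECTIN2, which encodes a cell adhesion molecule, that scored 338 in islands of 599 and 1199 bp.

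Within the islands, HER2 sites were spread from the centre to the edge. On a scale from 0 at the centre of the island to 1 at its edge, the median site stood at 0.497 in replicate 1 and 0.476 in replicate 2. The average of these values was 0.487, beside 0.491 (0.432 to 0.528) at moved positions. The inner 50% of the island held 167 sites in replicate 1 (50.8%, 45.4 to 56.1) and 173 in replicate 2 (52.6%), and it held 50.4 and 52.0% of moved positions. The median distance from the midpoint to the nearer edge was 1282 bp in replicate 1 and 1411 bp in replicate 2, each within the range over the placements, 1183 to 1741 bp and 1295 to 1686 bp. The midpoint of 11 sites in replicate 1 and 7 in replicate 2 stood beyond the island that the peak overlapped.

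**Figure D4:**
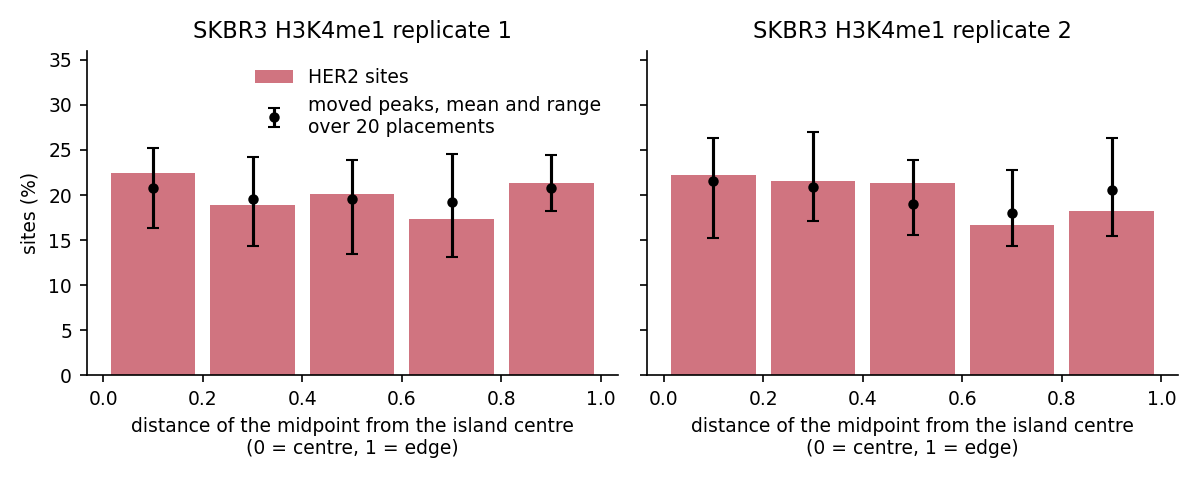
Share of sites, in percent, by relative position in the island (0 at the centre, 1 at the edge) in each SKBR3 replicate, for HER2 sites (bars) and for moved positions (points, mean and range over the 20 placements). The inner 50% of the island holds 50.8% of HER2 sites in replicate 1 and 52.6% in replicate 2.

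Many of the sites were also marked in BT474. An island of both BT474 replicates covered 174 of the 329 sites (52.9%, 47.5 to 58.2), an island of only 1 replicate covered 22 (6.69%), and 133 had none (40.4%, 35.3 to 45.8). Among HER2 peaks outside SKBR3 islands, 74 of 2081 had an island of both BT474 replicates (3.56%), a difference of 49.3 points (43.9 to 54.7). Moved positions in SKBR3 islands had a BT474 island of both replicates in 52.6% of cases (47.3 to 59.3) and moved positions outside them in 3.72% (2.70 to 4.55). Sharing of the mark between the lines at HER2 sites was therefore within the range of island positions nearby. The share with an island in only 1 BT474 replicate, 6.69%, lay below all placements (9.03 to 13%). The BT474 islands at the sites had a median width of 4399 bp in both replicates, just below every placement. The placements gave 4499 to 6199 bp in replicate 1 and 4599 to 5799 bp in replicate 2. In BT474 replicate 1 the islands at the sites had a median of 60.5 reads per kb, and 51.4 in replicate 2, within the range at moved positions (58.0 to 65.0 and 48.4 to 55.1).

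The 174 sites marked in both lines and the 133 marked in SKBR3 alone were then set side by side. The median width of the SKBR3 island was 6099 bp (replicate 1) and 5999 bp (replicate 2) at shared sites, and 5199 and 6199 bp at sites marked in SKBR3 alone. The SKBR3 islands held a median of 50.4 and 48.8 reads per kb at shared sites, and 42.3 and 40.9 at the others. A start site stood within 10 kb of 61.5% of shared sites and 49.6% of the others, a difference of 11.9 points (0.682 to 22.7), and the moved positions in the same classes gave 60.8 and 53.9%. The median HER2 score was 133 at shared sites and 126 at the others. A BT474 EGF peak was called at 82.2% of the sites with the mark in BT474 and at 88.0% of those without it, a difference of -5.79 points with an interval that includes 0 (-13.6 to 2.49). A HER2 peak in BT474 was thus called at most of the sites whether or not the island was present in that line.

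**Figure D5:**
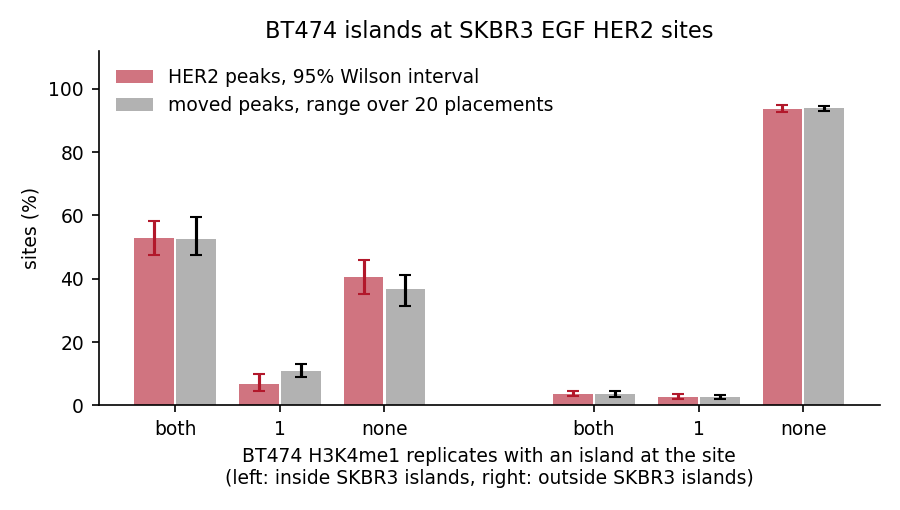
Share of sites, in percent, with a BT474 H3K4me1 island of both replicates, of 1 replicate or of none, for SKBR3 EGF peaks in and outside SKBR3 islands with 95% Wilson intervals, and for moved positions as the mean and range over the 20 placements. An island of both BT474 replicates covers 52.9% of the sites in SKBR3 islands and 3.56% of those outside, beside 52.6 and 3.72% of moved positions.

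Motifs were counted as runs of letters on both strands, up to 50 bp from the midpoint and in equally long windows 1 kb to either side. The core CGTNTGC was present at 41 of the 329 sites (12.5%) and in 1.22% of their flanking windows. The study derived this core from HER2 peaks of these same samples, so its excess over flanking windows is not independent evidence. The TH, SMCO4 and RDH12 sequences printed earlier were picked because they hold it. Outside islands the core was present at 240 of 2081 peaks (11.5%) and in 1.30% of flanking windows. The difference of 0.929 points between the groups had an interval of -2.53 to 5.14. The AP-1 motif, written TGANTCA, occurred at 7 sites (2.13%) and in 2.89% of flanking windows. The STAT motif, written TTCNNNGAA, occurred at 4 sites (1.22%) and in 2.13% of flanking windows. Outside islands these motifs occurred at 2.11 and 2.31% of peaks. The octamer found at the most sites was GAGAGAGA or its complement TCTCTCTC, at 37 sites (11.2%) and in 1.37% of flanking windows. It occurred at 12.4% of peaks outside islands. Because this octamer was picked for its count at the sites, its higher share there than in flanking windows follows partly from the choice. A match is a description of letters and was not tested as a binding site.

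Over all protein-coding genes, 237 of 20163 (1.18%) had a site of this kind in the gene or within 10 kb of a start, beside 1.2% at moved positions. The count at single placements ran from 201 to 267. Counting start sites of all gene types, 290 genes lay within 10 kb, beside 244 to 319 at the placements. Of the 329 sites, 193 stood inside a protein-coding gene, whereas 113 had none in reach. No value at moved positions is given for these counts. Introns of genes of any type held 59.3% of the sites and 60.7% of moved island positions.

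The genes of EGF signalling were followed through lists ordered from the receptors to the nucleus. Among the ERBB receptors and their ligands, 1 of 15 genes had a site, the receptor gene EGFR, and the placements gave 0 to 3. None of the 19 adaptor and RAS genes, the 26 genes of the PI3K, AKT and mTOR cascade, the 19 JAK and STAT genes or the 23 feedback regulators had one, and the mean over placements was 0.5, 0.35, 0.4 and 0.65. Of 43 MAPK cascade genes only MAP3K13 had a site, of 12 protein kinase C genes only PRKCI, of 20 immediate early genes only NR4A1 and of 20 luminal transcription factors only TFAP2A. Of 50 other receptor tyrosine kinase genes, PTK7 and MUSK had one. No list left the range of its placements.

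EGFR, the receptor of EGF and dimerization partner of HER2, held 2 of the sites, both in an intron. The peak at chr7:55129942-55130145 scored 85.5 and lay in an island of 30799 bp with 1688 reads in replicate 1. The peak at chr7:55163361-55163706 scored 270 and lay in a separate island of 10199 bp with 330 reads in replicate 1. In replicate 2 a single island of 80199 bp with 5196 reads covered both. Neither position had a BT474 island, although both had a BT474 EGF peak. Elsewhere in EGFR the mark was called in BT474 as well, with islands over 21.2 and 19.4% of the gene in its replicates, beside 65.3 and 65.1% in SKBR3.

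MAP3K13, a kinase upstream of JNK, held the peak at chr3:185082111-185082405, whose sequence is printed earlier, in an intron 1228 bp from a start site. It scored 249.5. Its islands were 7199 and 11399 bp wide with 604 and 711 reads in SKBR3, and 4599 and 6399 bp wide with 463 and 455 reads in BT474. PRKCI, the atypical protein kinase C iota, held a peak in an intron that scored 223.5, in islands of 6999 and 7199 bp with 380 and 368 reads in SKBR3 and of 6799 bp in both BT474 replicates. Both sites thus lay in islands found in all 4 H3K4me1 libraries.

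PTK7, a receptor with an inactive kinase domain that takes part in Wnt signalling, held an intronic peak that scored 151.5 in islands of 13199 and 11999 bp. MUSK, the receptor kinase of the neuromuscular junction, held one that scored 153.5 in islands of 14599 and 14399 bp. The site near TFAP2A, which encodes the transcription factor AP-2 alpha, scored 191.5 and lay in islands of 5599 and 12199 bp with 209 and 545 reads, and in BT474 it had an island in replicate 1 but not in replicate 2.

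Of 11 genes that the study named, a list drawn partly from these same samples, EGFR and MAP3K13 held a site in islands, beside 0 to 3 genes at the placements. The study named MAP3K13, PRKCH, MYC and MAPK11 as genes near common HER2 and H3K4me1 sites, from its lists for SKBR3 and BT474. Which line each gene came from was not stated, so the SKBR3 values here are not a check of those lists. PRKCH and ERBB3 each held an SKBR3 EGF peak that lay outside islands, with scores of 134.5 and 368. The other genes held none, and the distance to the nearest SKBR3 EGF peak ran from 65.6 kb at CCND1 to 715 kb at ERBB2, the gene of HER2 itself. The nearest peak was in islands for MYC, MAPK11, ERBB2 and CCND1, and outside islands for STAT3, CDKN1A and PTGS2.

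Of the 10 sites with the highest scores, none had a protein-coding start within 1 kb. Most of all 329 sites also lay farther away than that, with a lower quartile of 4865 bp for this distance. The highest score was 1616, at chr5:32674804-32675003, an intergenic site 14272 bp from the start of NPR3, the clearance receptor of natriuretic peptides. It ranked 16 in the whole list, lay in islands of 1999 and 1799 bp with 66 and 86 reads, and was called in SKBR3 vehicle but not in BT474 after EGF. BT474 had an island there in replicate 2 alone. A second site in an intron of NPR3 scored 558.5, lay in islands of 3199 and 2599 bp, and was called both in SKBR3 vehicle and in BT474 after EGF. LTBP1, which encodes a binding protein of latent TGF-beta, held an intronic site that scored 650 in islands of 13399 and 16399 bp with no island in BT474. PARD6B, a protein of the cell polarity complex, held an intronic site that scored 564 in islands of 17399 and 17599 bp with 1705 and 1564 reads. In BT474 this locus had islands of 36799 and 38799 bp with 4494 and 3878 reads, yet no BT474 EGF peak. The PARD6B site is the reverse of the sites in EGFR, where BT474 had a peak but no island at the position. A site 9107 bp from the start of PSMG3, which encodes a proteasome assembly chaperone, scored 881 in islands of 1599 and 2199 bp with 59 and 66 reads. The widest SKBR3 island at any site, 117999 bp with 11685 reads in replicate 1, held a peak 703 bp from the start of the noncoding gene PELATON that scored 501.5. In replicate 2 this island measured 52999 bp with 4991 reads, and in BT474 the islands there were 8199 and 4599 bp wide. High scores thus occurred in islands from under 2 kb to over 100 kb wide.

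The 5 sites in the islands with the most reads per kb had scores between 9 and 400. The site in NEDD4L, a ubiquitin ligase, scored 36 and lay in a 399 bp island with 121 reads in replicate 1 and a 1199 bp island with 120 reads in replicate 2. In BT474 the same site lay in islands of 9199 and 55999 bp. The site in NCEH1, a cholesterol ester hydrolase, scored 118 in islands of 31199 and 40399 bp with 3556 and 4079 reads, while the BT474 islands there were 2599 bp wide with 160 and 115 reads. At chr17:77900995-77901242 the islands were 52199 and 53399 bp wide with 5751 and 6175 reads, the score was 135, and no island was called in BT474. KCNMA1, the pore subunit of a calcium-activated potassium channel, held a site that scored 400 in islands of 10999 and 5999 bp with 916 and 660 reads.

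There were 12 genes with 2 sites and none with more, among the 237 protein-coding genes with a site. This count has no value at moved positions beside it, and gene length was not taken into account. The 12 genes were CYTH3, DMD, EGFR, FXYD1, FXYD7, LGI4, JARID2, JMJD1C, KCNMA1, SLC16A5, SLC24A3 and SSH2. Of these, FXYD1, FXYD7 and LGI4 adjoin one another and share the same pair of peaks. JARID2, an accessory subunit of Polycomb complex PRC2, held sites that scored 43 and 233 in islands of 43199 and 47599 bp in replicate 1. Only the latter had an island in BT474. In DMD, the dystrophin gene, the sites scored 123.5 and 89.5 and lay in islands of 2999 and 2599 bp in replicate 1, and the former held the core. In SSH2, a phosphatase of cofilin, the sites scored 285 and 183.5 and lay in islands of 7599 and 9399 bp in replicate 1, with islands of 2799 and 3199 bp in BT474 replicate 1. In JMJD1C, a member of the jumonji demethylase family, the sites scored 261 and 168, and each had an island in all 4 H3K4me1 libraries. Paired sites in a gene can share an island and are not independent of each other, as at EGFR and SLC16A5 in replicate 2.

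Along the genome, chromosome 1 held the most sites, 39 of its 258 peaks, followed by chromosomes 7 (31 of 273) and 20 (31 of 174). These shares were 15.12, 11.36 and 17.82%, beside means of 14.63, 13.8 and 21.85% at moved positions. The share of a chromosome's peaks that lay in islands was 26.4% on chromosome 17 (19 of 72), with 13.9 to 31.9% over its placements. On chromosome 8 it was 4.17% (3 of 72), with 4.17 to 11.1% over its placements. Of the 23 chromosomes, only X stood above all of its placements, with 6 of 71 peaks in islands (8.45%) against 0 to 7.04%, and none stood below.

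With 1 HER2 list per condition, no value has an error between HER2 replicates, and the intervals cover counting of peaks only, which treats neighbouring peaks as separate. The files cannot settle whether the H3K4me1 cells had received EGF.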

How the data were processed

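HER2 ChIP-exo lists (1 per condition) and H3K4me1 lists (2 replicates per cell line) were analysed. The input samples were not analysed here. Samples were grouped by cell line, treatment and antibody in the labels. In the study's methods, reads were aligned to hg19 with bowtie2 and poorly mapped reads dropped, MACS2 called the HER2 peaks and SICER the H3K4me1 islands against input of the same line, and blacklisted and high-input regions were removed. The submitters' processing notes name BWA 0.5.9, MACS 1.4.1 and SICER 1.1 on GRCh37, which differs in the aligner and in the version of MACS. HER2 peaks carry the score that the authors deposited, in steps of 0.5 on an unstated scale. Islands carry the count of reads that the authors deposited, unscaled. No summits were given, so midpoints stood in for them.

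The annotation was GENCODE release 44 on GRCh37 (64449 genes without the mitochondrion). Overlap meant at least 1 bp, and the region upstream of a start site was 1 kb. Each peak was moved in steps of 20 kb up to 200 kb to either side, with no random draw, and a range over placements is a measured background, not a test. Shares carry 95% Wilson intervals and differences of shares 95% Newcombe intervals, and a difference counted as past the threshold when its interval left out 0. No p-values were computed, since peaks are not replicates. Genes named are those at the 10 highest scores, at the 5 densest islands, with 2 or more sites, in a gene list with a site, or named by the study, and those at the narrow islands and at the edge of the rule were named after their values were seen. The members and lists were chosen with earlier results of these data known. The procedure was tested on simulated data. Python 3.11.15, numpy 2.4.6, pandas 2.3.3, scipy 1.17.1 and matplotlib 3.10.9 were used. Alternatives varied the overlap, the replicates, the island reads, the scores, the moves and the start sites.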

Additional observations from a re-analysis of the deposited data

How the results depend on the processing

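Of 96 alternatives, 79 kept the direction and the side of the threshold, or the value within its spread. The share of peaks in islands was 15 to 15.4% when the rule used a single SKBR3 replicate, 17.4% with islands of either replicate and 9.29% with islands at or above the median read count, against 13.1%. With peaks at or above the median score, the BT474 island share at HER2 sites exceeded that at moved sites by 3.80 points, against 0.279. The median relative position was 0.501 to 0.524 with a single replicate, against 0.487. Moved sites gave 0.5165 to 0.5332 with a single replicate, against 0.4907. Genes with a start within 10 kb numbered 142 when only protein-coding genes were counted, against 290, and moved sites gave 156.

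The BT474 difference from moved sites was -0.184 with at least 50% of the peak inside, -0.211 with the midpoint inside, and -2.01 to 0.0658 with a replicate left out. Moved sites gave 323 genes against 322 without SKBR3 replicate 2. Differences between sites in and outside islands changed sign only where their interval included 0. With peaks at or above the median score, this difference was -1.88 points for high scores, -3.97 for the core and -0.424 for BT474 EGF peaks. The core difference was -0.868 over the whole peak. With islands at or above the median read count, the difference was -0.405 for AP-1 and -0.766 for BT474 EGF peaks. With a single SKBR3 replicate it was -0.267 to -0.0578 for AP-1 and 1.03 to 2.74 for SKBR3 vehicle peaks. The cause was not tested. No paired analysis was possible because no result came from a test between groups of samples. The unknown depth of the HER2 lists limits what a missing peak can show.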

Other observations

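The 110 HER2 peaks in an island of only 1 SKBR3 replicate were not compared as a group in the report. Of these, 50 were in an island of replicate 1 alone and 60 in replicate 2 alone. SKBR3 vehicle had a peak at 30 of the 110 (27.3%, 19.8 to 36.3), and the share was 12.7% for peaks outside islands, a difference of 14.6 points (6.99 to 23.7). The share was 22.0% for replicate 1 alone and 31.7% for replicate 2 alone. An island of both BT474 replicates covered 17.3% of these peaks. The core was present at 18.2% of them (12.1 to 26.4), and their median score was 143. This difference was noticed after the values were seen.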
